A study of Mus musculus with 45 samples.

Results

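The genes described here lie on mouse chromosome 17, in the interval from 23 to 26.5 Mb (mm10) around Atp6v0c, which encodes a subunit of the vacuolar proton pump. In hippocampus, Atp6v0c was lower wherever the mice carried Csf1r-Cre, and the interval was chosen around it from that difference. The members are its protein_coding genes whose level, averaged over 45 samples, reached 1 TPM (transcript abundance scaled for gene length and library total). Atp6v0c and Rps2 were left out. Of 202 listed genes in the interval, 149 were protein_coding and 92 reached 1 TPM, which left 90 members out of 54532 listed genes. The other 57 protein_coding genes were under 1 TPM, and 14 of these were at 0 in every sample.

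Every mouse was Apoe fl/fl on a C57BL/6 background, so the controls also carried floxed copies of Apoe. At 4 months there were 8 samples with no further transgene, 6 carrying Csf1r-Cre, 5 carrying 5xFAD and 4 carrying both transgenes. At 12 months the same genotypes had 3, 7, 7 and 5 samples. Csf1r-Cre expresses Cre recombinase in microglia and other myeloid cells, and 5xFAD mice carry human amyloid transgenes under the neuronal Thy1 promoter. For the 7 samples of 12-month 5xFAD mice titled without Csf1r-Cre, titles and strain entries conflict, since the strain entries list Csf1r-Cre. The titles were followed. Sex is not stated, and the labels do not say that samples came from separate animals, so the spread behind each p-value may be technical. Both NovaSeq and HiSeq instruments are named without assignment to libraries, and a difference of instrument between the ages cannot be told apart from age. In whole tissue, fewer cells of a type and less RNA per cell cannot be told apart.

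The region is dense with housekeeping genes. It holds Tsc2, which restrains the growth kinase mTOR, tail to tail with Pkd1, the polycystin gene mutated in polycystic kidney disease. Other members build mitochondria, splice RNA or act at synapses.

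Mean levels of the members ran from 1.24 TPM for Ccnf, the F-box protein cyclin F, to 678 TPM for Elob, the elongin B subunit of ubiquitin ligases. The median member had 19.9 TPM, 11 members had at least 100 TPM and 18 had under 5. After Elob came Ndufb10 with a mean of 512 TPM (a subunit of respiratory complex I), Fbxl16 with 325 TPM (an F-box protein), Hagh with 195 TPM (glyoxalase II) and Syngr3 with 188 TPM (a synaptic vesicle protein). Just inside the threshold were Ccnf, Wdr90 at 1.49 TPM and Tekt4 at 1.56 TPM. Just outside were Noxo1 at 0.829 TPM, Npw at 0.764 TPM and A930017K11Rik at 0.762 TPM. At the edges by position, Zfp40 and Neurl1b were the outermost members, and Zfp945 and Dusp1 were the nearest expressed genes beyond them. Of the members, 35 lie on the plus strand and 55 on the minus strand. The listed spans of 54 members overlap another listed gene, and 50 overlap one on the other strand. Whether reads were counted by strand is not given in the sources used here, so the values of these 50 may include reads of the overlapping gene.

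Depth differed between members. The values of 89 of the 90 were whole numbers of reads in all samples, within 0.02 reads, for 1 fitted length per gene. The median member had a median of 406 reads per sample, and the lowest median of any member was 21 reads. For a gene 1000 bases long, 1 read corresponded to between 0.0573 and 0.0902 TPM, depending on the library. Over all genes, 2 libraries had the lowest median correlations with the other libraries. They were 12-month Csf1r-Cre replicate 2, at 0.886, and 12-month control replicate 2, at 0.939. Below they are called the libraries that stood apart. The medians of the remaining libraries are not given here, so how far these 2 lay from them is not shown. Apoe itself ranged from 1292 to 5434 TPM across samples, and the 5 listed markers of hippocampal neurons summed to 44.2 to 297 TPM per sample. Markers of neighbouring tissue varied widely, with the 4 choroid plexus markers summing to 3.58 to 6990 TPM per sample and the 4 striatal markers to 54.4 to 3335 TPM.

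Promoter sequences from RefSeq (GRCm38.p6) were found for 69 of the 90 members. Those of Spsb3, Amdhd2, Jpt2 and Msrb1 are shown because the comparisons turn on these genes. They lie at chr17:24886393-24886642 on the plus strand, chr17:24163767-24163864 on the minus strand, chr17:24960690-24960873 on the minus strand and chr17:24736343-24736592 on the plus strand. Each is the stretch of the 250 bases before the RefSeq start that lies outside every listed gene (98 bases for Amdhd2 and 184 for Jpt2), 5′ to 3′ along the gene, and capitals mark a GC box, a CCAAT box or a TATA box on either strand, spelled out after the sequences.
Spsb3: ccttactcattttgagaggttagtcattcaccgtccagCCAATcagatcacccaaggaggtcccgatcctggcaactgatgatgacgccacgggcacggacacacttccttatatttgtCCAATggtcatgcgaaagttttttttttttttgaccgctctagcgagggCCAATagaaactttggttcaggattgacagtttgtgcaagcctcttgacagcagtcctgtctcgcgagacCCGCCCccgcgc
Amdhd2: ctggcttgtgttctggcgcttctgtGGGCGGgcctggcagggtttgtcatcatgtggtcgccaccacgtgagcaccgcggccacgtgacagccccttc
Jpt2: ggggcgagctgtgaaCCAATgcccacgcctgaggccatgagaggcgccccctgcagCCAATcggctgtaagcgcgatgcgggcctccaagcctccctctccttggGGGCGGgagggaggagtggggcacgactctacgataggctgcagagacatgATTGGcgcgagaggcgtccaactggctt
Msrb1: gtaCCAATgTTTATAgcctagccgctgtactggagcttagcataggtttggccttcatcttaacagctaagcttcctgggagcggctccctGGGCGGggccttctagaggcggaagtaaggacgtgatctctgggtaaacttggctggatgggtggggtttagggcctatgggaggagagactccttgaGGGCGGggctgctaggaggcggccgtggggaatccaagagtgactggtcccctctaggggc

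The GC box, GGGCGG on either strand, was present in 42 of the 69 promoters (60.9%), against 32.9% of the promoters of 27025 genes, over the whole 250 bases. The CCAAT box, named for its letters and searched on either strand, was present in 32 (46.4%), against 34.5%. The TATA box was searched as TATAAA and was present in 2 (2.90%), against 13.0%. The median number of CpG pairs was 15 in the members' promoters and 6 over all promoters, and the median GC content was 58.8% and 52%. The 69 promoters thus held more GC boxes and CpG pairs and fewer TATA boxes than the promoters of the 27025 genes. Those genes were not limited to protein_coding genes of at least 1 TPM, as the members were. For each of them the first listed promoter was used, and for members the one nearest the listed gene start. No such difference was tested, nor whether it is particular to the interval.

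The first comparison asks whether the neighbours of Atp6v0c moved with it when Csf1r-Cre was present. Since this difference chose the interval, the values are a description. Atp6v0c itself ranged from 306 to 572 TPM in the 8 controls at 4 months and from 168 to 226 TPM in the 6 Csf1r-Cre samples. In 5xFAD mice at 4 months it was 333 to 447 TPM without Cre and 168 to 220 TPM with it. At 12 months it was 295 to 463 TPM in controls and 111 to 212 TPM with Csf1r-Cre, and in 5xFAD mice 330 to 414 TPM and 160 to 197 TPM. The ranges with and without Cre did not overlap in any of the 4 backgrounds, and the mean difference was -1.02 on the log2(TPM + 0.5) scale. Of 18659 tested genes, Atp6v0c was the only 1 (0.00536%) that was lower with Cre without overlap in 4 of 4 backgrounds. Rps2, a ribosomal protein gene, differed by -0.35 with overlapping ranges. The row Atp6v0c-ps2, an Atp6v0c pseudogene on chromosome 6, was at 9.24 to 59.9 TPM without Cre and 275 to 544 TPM with it, higher without overlap in 4 of 4 backgrounds, with a log2 difference of 4.85. This row, chosen after its values were seen, shares sequence with Atp6v0c, and how reads that map to both were counted is not given in the sources used here.

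The 90 members differed far less than Atp6v0c. Averaged over the 4 backgrounds, their log2 differences ran from -0.44 to 0.38 with a median of -0.04, where all 18659 genes had a median of -0.04 and the 12888 protein_coding genes of at least 1 TPM a median of -0.06. Of the members, 55 were lower and 35 higher, but 38 were lower with median-of-ratios scaling and 45 without both libraries that stood apart. In size, 83 lay within 0.25 of 0 and 0 reached 0.5. The limma model put 2 of 90 members, Rnps1 and Spsb3, under an adjusted p of 0.05, both lower, and 0.139% of all genes. The corresponding share of all genes called lower was 0.0268%. In each background taken alone, 0 members were called, while the unadjusted p was under 0.05 for 3 members in 4-month mice without 5xFAD, 1 in 4-month 5xFAD, 18 at 12 months without 5xFAD and 5 in 12-month 5xFAD. The same unadjusted threshold was passed by 363, 268, 1887 and 615 of the 18659 genes in these 4 backgrounds. The share of all genes called by adjusted p was 0.0482%, 0.059%, 0.0697% and 0.059%.

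**Figure D1:**
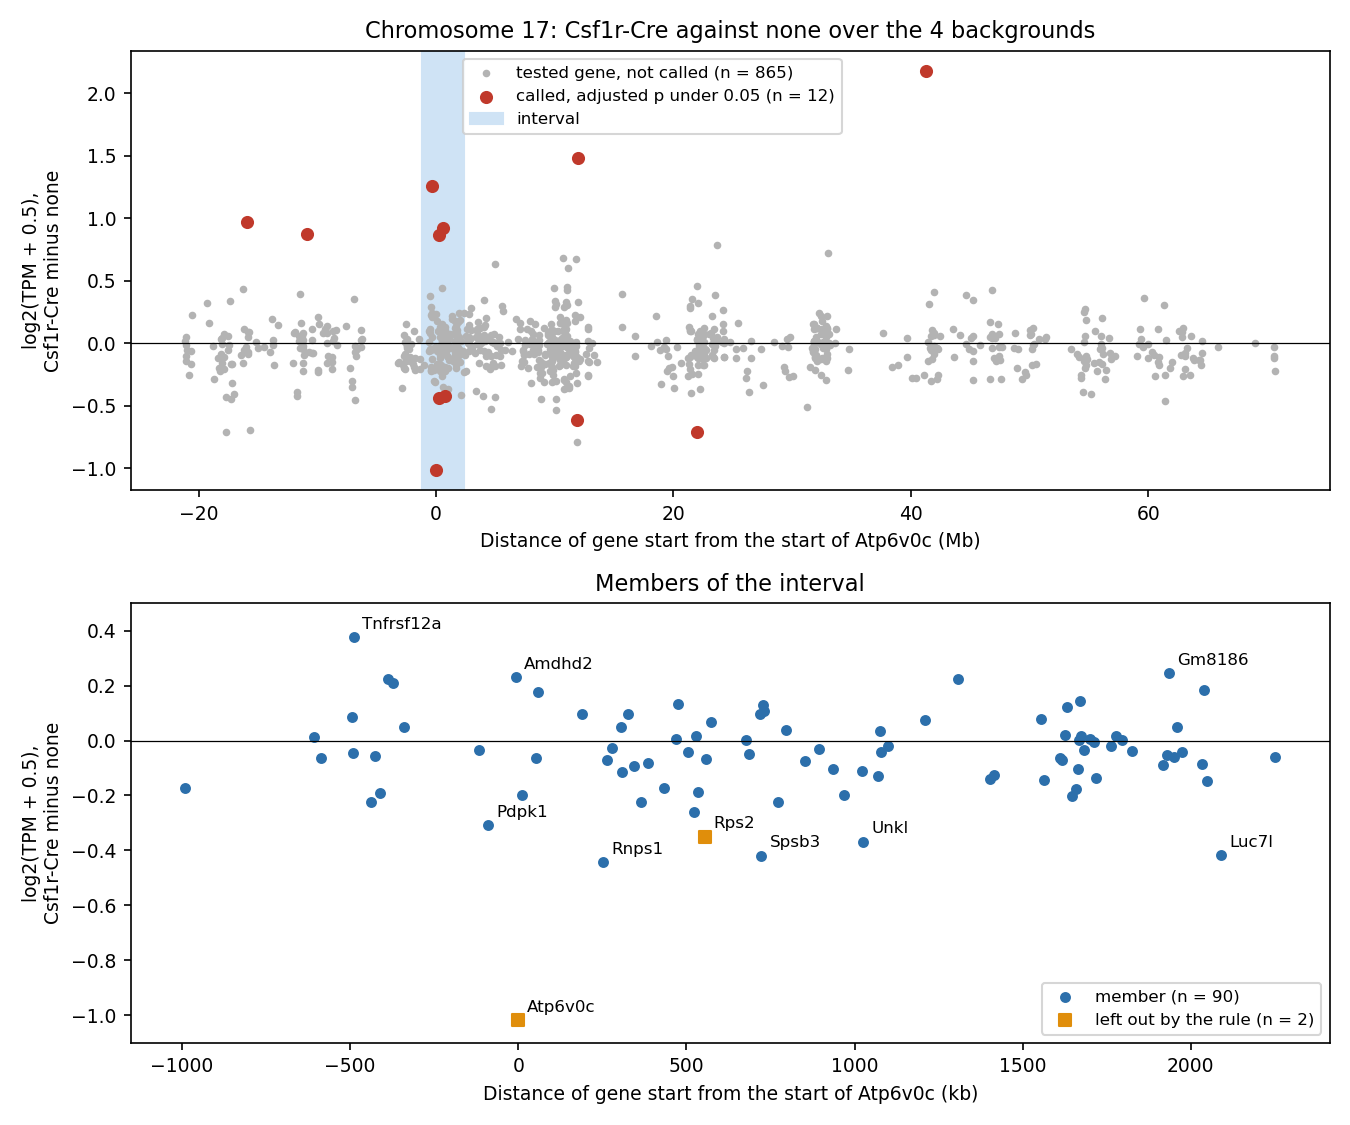
The upper panel plots the log2(TPM + 0.5) difference, Csf1r-Cre minus none over the 4 backgrounds, of 877 tested genes on chromosome 17 against distance from the start of Atp6v0c in Mb, with the interval shaded and 12 called genes in red. The lower panel shows the 90 members (blue) and the 2 genes left out (squares) by distance in kb, with Atp6v0c at -1.02 and all members between -0.44 and 0.38.

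Distance from Atp6v0c did not order the differences. The 30 members nearest to it by gene start (8.03 to 521 kb) had a median log2 difference of -0.04, the middle 30 (529 to 1553 kb) a median of -0.05 and the farthest 30 (1564 to 2251 kb) a median of -0.04. On the lower-coordinate side, the nearest members were Amdhd2, an enzyme that removes acetyl groups from an amino sugar phosphate (log2 difference 0.23), Pdpk1, the kinase that activates Akt (-0.31), Kctd5, a ubiquitin ligase adaptor (-0.03), Elob (0.05) and Srrm2, a scaffold of nuclear speckles (0.21). On the other side they were Tbc1d24, a synaptic vesicle protein (-0.20), Tedc2 (-0.06), Ccnf (0.18), Abca3, a lipid transporter (0.10) and Rnps1 (-0.44). Of these 10, only Rnps1 was called. The protein_coding genes of at least 1 TPM in flanks of equal length had medians of -0.13 (15 genes) and -0.02 (51 genes), with 0 called in each.

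Rnps1, which encodes a splicing activator of the exon junction complex, had the lowest difference. In the 8 controls at 4 months its lowest, median and highest levels were 43.7, 61.5 and 78.5 TPM, and in the 6 Csf1r-Cre samples 36.8, 42.0 and 48.1 TPM. In 4-month 5xFAD mice it was at 55.1, 58.1, 46.9, 43.3 and 59.4 TPM without Cre and at 44.0, 46.8, 43.6 and 34.6 TPM with it. Rnps1 was thus lower on average with Cre in both, with ranges that overlapped. At 12 months the 3 controls were at 49.7, 53.8 and 59.3 TPM, and the Csf1r-Cre samples had a lowest, median and highest level of 17.9, 38.3 and 50.02 TPM. In 12-month 5xFAD mice the lowest, median and highest of the 7 samples without Cre were 44.6, 54.1 and 63.8 TPM, and the 5 samples with Cre were at 37.1, 39.7, 38.9, 47.8 and 47.8 TPM. The ranges overlapped in all 4 backgrounds, and the log2 difference was -0.44 ± 0.08 (SE). The lowest of these values, 17.9 TPM, came from a library that stood apart, and without both such libraries the difference was -0.40.

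Spsb3, a substrate adaptor of a ubiquitin ligase, was low overall. Its mean was 10.9 ± 2.08 TPM (SD, n = 8) in 4-month controls and 6.97 ± 1.28 TPM (SD, n = 6) with Csf1r-Cre. These ranges did not overlap, but only just, at 8.77 TPM for the lowest control and 8.75 TPM for the highest Cre sample. In 4-month 5xFAD mice the means were 9.48 ± 1.74 TPM (SD, n = 5) and 7.86 ± 1.40 TPM (SD, n = 4). At 12 months they were 10.5 ± 2.55 TPM (SD, n = 3) and 8.02 ± 1.84 TPM (SD, n = 7), and in 12-month 5xFAD mice 10.5 ± 1.28 TPM (SD, n = 7) and 7.70 ± 1.43 TPM (SD, n = 5). In the last 3 backgrounds the ranges overlapped, and the log2 difference was -0.42 ± 0.09 (SE). The call of Spsb3 was lost without each of 7 single libraries: 5xFAD 4-month replicates 4 and 5, 5xFAD Csf1r-Cre 4-month replicates 1 and 3, 12-month control replicates 1 and 2, and 5xFAD Csf1r-Cre 12-month replicate 1. Without 12-month control replicate 2 the log2 difference was -0.38, the smallest of these.

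Luc7l, a protein bound to the U1 splicing particle, had a log2 difference of -0.42 ± 0.14 (SE) and was not called. Its mean was 40.2 ± 8.80 TPM (SD, n = 8) in 4-month controls and 29.0 ± 9.24 TPM (SD, n = 6) with Csf1r-Cre. In 12-month 5xFAD mice both means were 33.4 to 33.5 TPM. The other members among the 8 lowest were Unkl (-0.37), Pdpk1 (-0.31), Syngr3 (-0.26), Rab26, a small GTPase of secretory vesicles (-0.22), and Jpt2, a binding protein of the calcium-releasing messenger NAADP (-0.22). The 8 highest were Tnfrsf12a, the receptor for the cytokine TWEAK (0.38), Gm8186 (0.24), Amdhd2 (0.23), Flywch2 (0.22), Tekt4, a structural protein of cilia (0.22), Srrm2 (0.21), Rgs11, a regulator of G protein signalling (0.18) and Ccnf (0.18). None of these was called.

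**Figure D2:**
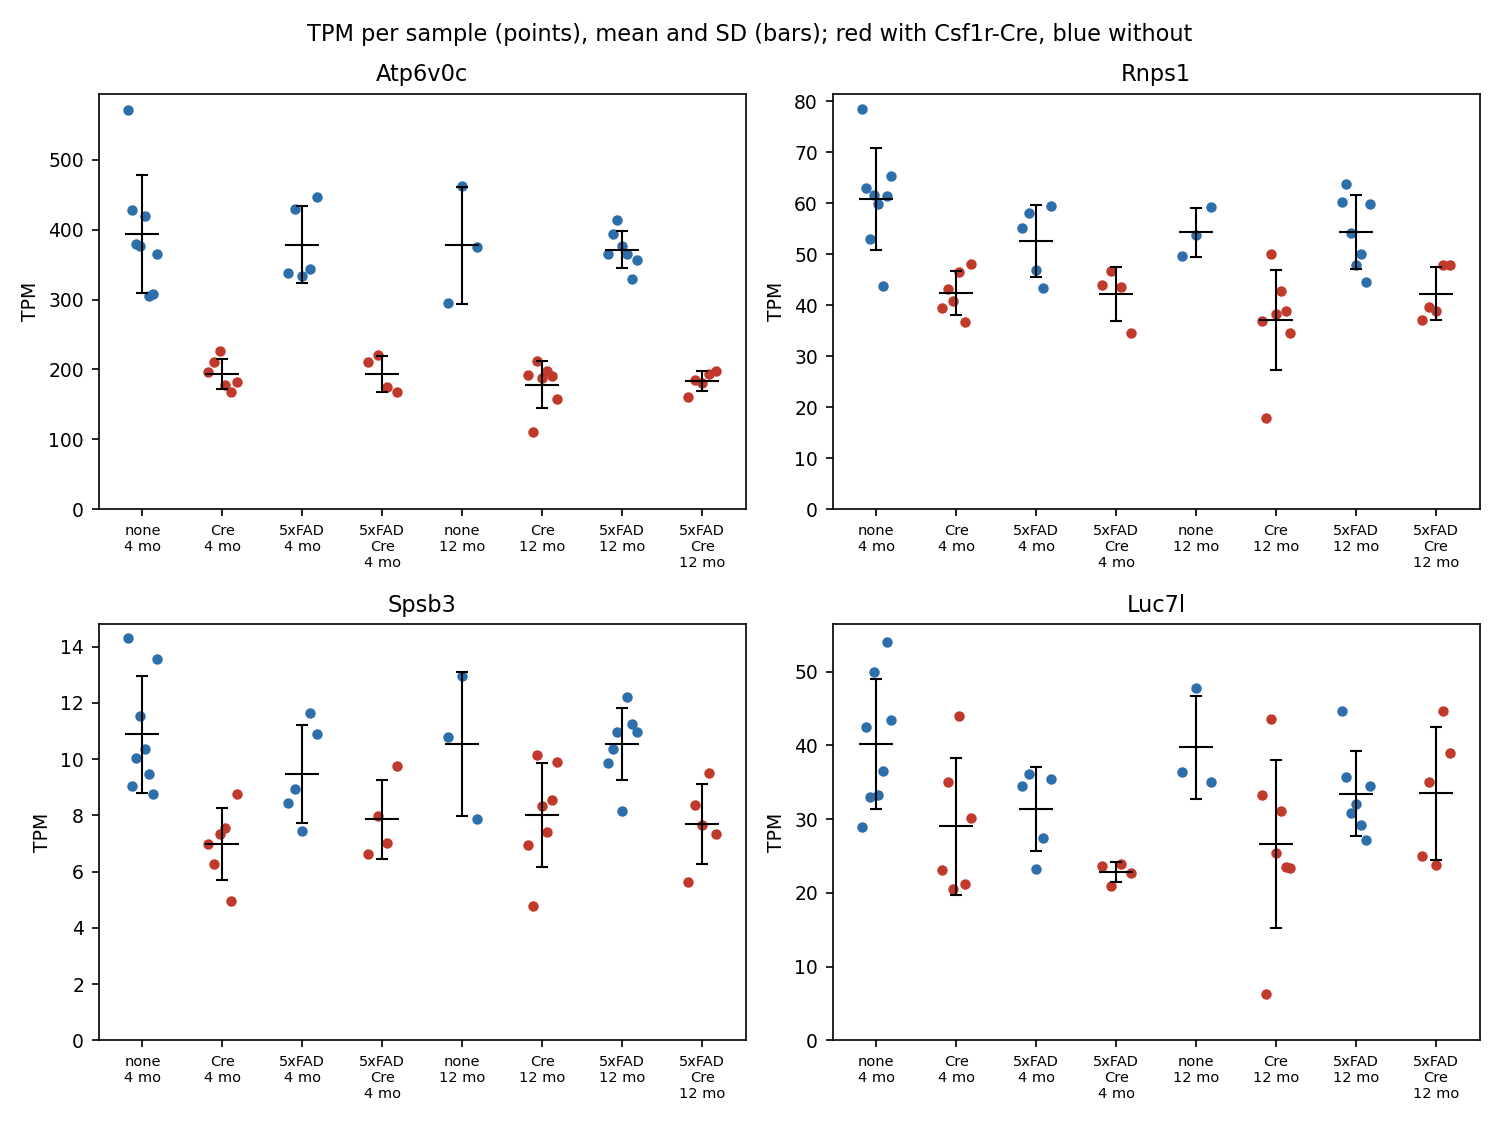
TPM of Atp6v0c and of the members Rnps1, Spsb3 and Luc7l in each of 45 samples by group (points), with the mean and SD as bars. With Csf1r-Cre (red), Atp6v0c lay at 111 to 226 TPM and below every sample without it (blue, 295 to 572 TPM), whereas the other genes overlapped in at least 3 of 4 backgrounds.

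Only a few members separated in any background. Spsb3, Jpt2, Ndufb10 and Rab40c, a small GTPase, were lower with Cre without overlap in 1 background each, and Mrpl28, a protein of the mitochondrial ribosome, was higher in 1. Of all genes, 0.809% were lower and 1.08% higher in this way in at least 1 background. No member did so in 2 or more backgrounds, against 3 genes of all tested (0.0161%) in the lower direction. Mean TPM was lower with Cre in 4 of 4 backgrounds for 13 of 90 members and for 7.47% of all genes. It was higher in 4 of 4 for 6 of 90 members and for 3.82% of all genes.

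Other calls lay in the interval but outside the members. Of 26 genes called over the 4 backgrounds, 12 were on chromosome 17, which held 4.70% of tested genes, and these 12 included all 5 called lower. On that chromosome 1.37% of tested genes were called, against 0.0787% elsewhere. The 12 calls include Atp6v0c, from which the interval was chosen, and genes near the limit of detection, so these shares are a description. The interval held 6 of the 12, namely Atp6v0c, Rnps1 and Spsb3, which were lower, and Rnf151, Prss41 and D330041H03Rik, which were higher. The last 3 were near the limit of detection, are named because their values were seen, and could pass the filter of 0.5 TPM in 3 samples mainly through the samples with Cre, so their calls carry no weight here. Rnf151 was at 0 in all 8 controls at 4 months and at most 0.127 TPM in any sample without Cre, against 0 to 1.23 TPM with it. Prss41, a serine protease gene, had a median of 0.0704 TPM in 4-month controls and 1.29 TPM with Csf1r-Cre at that age. D330041H03Rik had medians of 0.184 and 0.507 TPM in those groups. A further 2 calls lay before the interval on the same chromosome, Ccr6 (mean of 0.599 TPM) and AC166110.4 (0.404 TPM), both higher with Cre. Another 4 lay after the interval. Of the 5 calls on this chromosome that were lower, 3 lay in the interval and the rest after it, so lower calls were not confined to the interval.

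By role, the median log2 differences of the member groups lay between -0.13 and 0.01. Of 8 members in mTOR and growth signalling, 0 were called, and 7 were lower with Cre and 1, Tnfrsf12a, higher, with a median log2 difference of -0.11. Without both libraries that stood apart, 3 of the 8 were lower and the median was 0.01. The list included Pdpk1, Tsc2 (-0.17), Traf7 (-0.09) and Wdr24 (-0.18), a subunit of the amino acid sensing machinery upstream of mTOR. The 16 mitochondrial and metabolic members had a median of 0.01 (0.08 with median-of-ratios scaling), with Hagh at 0.00 and Pgp, a phosphatase of glycolytic by-products, at 0.05. The 17 members listed as neuronal and synaptic had a median of -0.04, with Fbxl16 at -0.20, Arhgdig at -0.09 and Mapk8ip3, a scaffold of axonal transport, at 0.13. That list was drawn broadly and also held Flywch2, Lmf1 and Rab40c. The 8 RNA processing members had a median of -0.09 and included both Rnps1 and Srrm2. The 4 members of the cilia and polycystin list were all lower, from -0.08 to -0.03, with Pkd1 at -0.08. Without both libraries that stood apart, 1 was lower and 3 higher. Tekt4, described above as a structural protein of cilia, was in no list and was higher (0.22). The 3 lysosomal and lipid transport members, the chloride exchanger Clcn7 (-0.20), the phosphotransferase subunit Gnptg (-0.13) and Abca3 (0.10), did not share a direction.

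**Figure D3:**
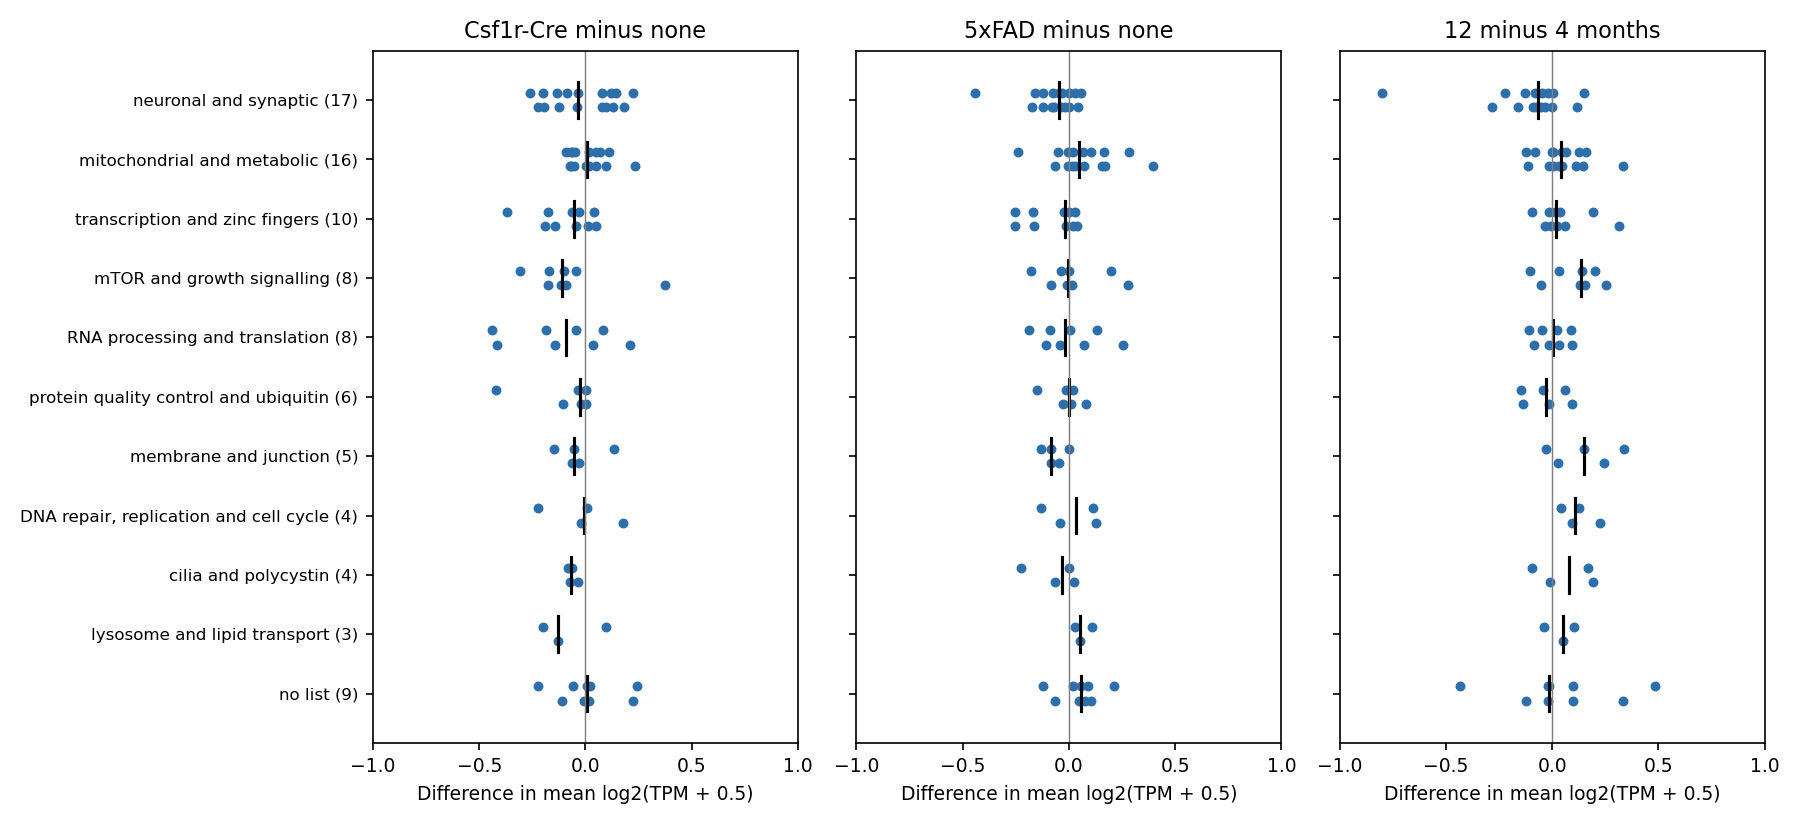
Differences in mean log2(TPM + 0.5) of the 90 members by role list (number of members in brackets) for Csf1r-Cre minus none, 5xFAD minus none and 12 minus 4 months, each averaged over 4 backgrounds. Points are genes and black lines are medians, which lay between -0.13 and 0.15 in every list.

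The second comparison, 5xFAD against none, was not used to choose the interval. Over the 4 backgrounds Amdhd2 was the only member called, which made 1 of 90 against 3.23% of all genes, or 2.97% counting higher calls only. Amdhd2 acts in the hexosamine pathway, which supplies sugars for glycosylation. At 4 months its lowest, median and highest levels were 13.9, 23.7 and 33.9 TPM in controls, and 23.5, 27.1, 26.3, 30.6 and 24.2 TPM were measured in the 5xFAD samples. In the 6 samples with Csf1r-Cre at 4 months the lowest, median and highest were 20.6, 22.9 and 29.7 TPM, and the 5xFAD samples with Cre were at 38.2, 36.4, 27.6 and 32.4 TPM. Amdhd2 was higher on average in 5xFAD in both, with overlap. At 12 months the controls were at 22.6, 17.5 and 20.6 TPM, and the 5xFAD samples had a lowest, median and highest level of 24.4, 29.8 and 33.8 TPM. In the 7 samples with Csf1r-Cre at 12 months they were 22.0, 25.4 and 27.8 TPM, and the 5xFAD samples with Cre were at 37.7, 39.3, 35.5, 27.7 and 29.9 TPM. The 12-month groups without Cre did not overlap, and those with Cre overlapped by 1 sample. The log2 difference was 0.40 ± 0.08 (SE) with a limma adjusted p of 0.000435, and the mean was higher in 4 of 4 backgrounds. With median-of-ratios scaling the adjusted p was 0.0657, and the call held without each single library. The promoter of Amdhd2 shown above lies between Amdhd2 and the 3′ end of Atp6v0c, whose own 5xFAD difference was 0.00.

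The summed level of the 5 microglial markers moved with 5xFAD. At 12 months it was 415 to 755 TPM in 5xFAD samples without Cre and 562 to 1040 TPM with it, against 246 to 350 TPM and 167 to 281 TPM without 5xFAD. None of the 5 markers was at 0 in every sample. Their part in any 5xFAD difference of a member was not tested.

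Within single backgrounds, 5 members were called, all at 12 months. Without Cre, Fahd1, a mitochondrial oxaloacetate decarboxylase, was higher in 5xFAD and Rab40c was lower, which made 2 of 90 members against 1.77% of all genes. Fahd1 was at 14.5, 13.1 and 25.1 TPM in controls, and its lowest, median and highest levels in 5xFAD were 23.1, 26.9 and 29.3 TPM. Rab40c was at 29.4, 47.1 and 30.5 TPM in controls, and the lowest, median and highest of the 7 5xFAD samples were 15.9, 23.9 and 28.4 TPM. The Rab40c ranges did not overlap, and for Fahd1 1 control lay within the 5xFAD range. The log2 differences were 0.61 ± 0.15 (SE) for Fahd1 with a limma adjusted p of 0.0236 and -0.63 ± 0.17 (SE) for Rab40c with a limma adjusted p of 0.0445. Both rest on the 3 controls. With median-of-ratios scaling the limma adjusted p was 0.293 for Fahd1 and 0.123 for Rab40c. Without control replicate 2, which stood apart, the limma adjusted p was 0.595 for Fahd1 and 0.842 for Rab40c, and without control replicate 1 it was 0.161 for Fahd1. The call of Rab40c was also lost without 5xFAD replicates 1, 2, 4, 5 or 6, with limma adjusted p of 0.0515 to 0.0982, and without 6 libraries of other groups, with 0.0502 to 0.0520. The 4 striatal markers summed to 160, 2373 and 3335 TPM as the lowest, median and highest of these controls, and to 97.8 to 1043 TPM in the 5xFAD samples; their part in both differences was not tested.

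With Csf1r-Cre at 12 months, 3 mitochondrial members were lower in 5xFAD, which made 3 of 90 against 6.02% of all genes, and 0.364% of all genes called lower. Rhot2, a GTPase of the outer mitochondrial membrane that links mitochondria to motors, had a lowest, median and highest level of 51.9, 77.6 and 88.2 TPM with Cre alone. With 5xFAD as well it was at 44.5, 41.0, 60.4, 46.0 and 52.0 TPM. The lowest, median and highest of the 7 samples with Cre alone were 425, 573 and 855 TPM for Ndufb10, which was at 469, 368, 476, 381 and 433 TPM with 5xFAD as well. For Mrpl28 they were 146, 159 and 216 TPM, and it was at 128, 119, 148, 133 and 129 TPM with 5xFAD as well. The ranges overlapped for all 3 genes, with 3 of the 5 samples carrying both transgenes below every Cre sample for Rhot2, 2 of 5 for Ndufb10 and 4 of 5 for Mrpl28. The limma adjusted p was 0.0205 for Rhot2 (log2 difference -0.53 ± 0.15, SE), 0.0387 for Ndufb10 (-0.43 ± 0.13, SE) and 0.0481 for Mrpl28 (-0.35 ± 0.11, SE). Median-of-ratios scaling moved the median of all genes from 0.27 to -0.02 in this comparison, and the log2 difference was then -0.94 for Rhot2 (limma adjusted p of 0.00386), -0.85 for Ndufb10 (0.0571) and -0.77 for Mrpl28 (0.0596). Under that scaling 404 of 18592 genes were called lower, against 68 of 18659 without it, so the share called lower depends on the scaling. With no filter on low values the limma adjusted p was 0.0555 for Ndufb10 and 0.0524 for Mrpl28, and with a pseudocount of 0.1 it was 0.0516 for Mrpl28. The call of Rhot2 was lost without Csf1r-Cre replicate 4 or 5xFAD Csf1r-Cre replicates 1, 2 or 4, with adjusted p of 0.0515 to 0.107. The call of Ndufb10 was lost without Csf1r-Cre replicates 2, 4, 6 or 7 or 5xFAD Csf1r-Cre replicates 2, 4 or 5, with adjusted p of 0.0509 to 0.161. The call of Mrpl28 was lost without Csf1r-Cre replicates 2, 5, 6 or 7 or 5xFAD Csf1r-Cre replicates 1, 2, 4 or 5, with adjusted p of 0.0511 to 0.175, and without 19 libraries of other groups, with 0.0502 to 0.0538. Without Csf1r-Cre replicate 2, which stood apart, the limma adjusted p was 0.130 for Ndufb10 and 0.134 for Mrpl28. The 3 excitatory neuron markers summed to 439 to 2592 TPM (median 1400) with Cre alone and to 2524 to 2966 TPM (median 2650) with 5xFAD as well. The 4 astrocyte markers summed to 147 to 1264 TPM (median 750.2) and 719 to 2260 TPM (median 1632). The part of these markers, and of the microglial ones given above, in the differences of the 3 genes was not tested.

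At 4 months 0 members were called for 5xFAD, without Cre (0.0107% of all genes) or with it (0.00536%). The unadjusted p was under 0.05 for 8 and 3 members, and for 1759 and 959 of all 18659 genes. The median member differed by -0.16 at 4 months without Cre, where all genes had a median of -0.23. At 12 months with Cre the median member differed by 0.19 and all genes by 0.27. Over the 4 backgrounds the median of members was -0.00 and that of all genes 0.00. By role, 13 of the 17 members in the broad neuronal and synaptic list were lower in 5xFAD with 0 called, the lowest being Fbxl16 at -0.44. Of all 90 members, 47 were lower and 43 higher. Of 16 mitochondrial and metabolic members, 11 were higher, and the member called among them was Amdhd2.

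The third comparison is 12 against 4 months. Over the 4 backgrounds 2 of 90 members were called higher and 0 lower, against 4.74% of all genes called and 4.64% called higher. Msrb1 is a selenoprotein that repairs oxidised methionine. At 4 months its lowest, median and highest levels were 28.8, 35.1 and 45.4 TPM in controls and 31.9, 34.7 and 40.1 TPM with Csf1r-Cre, and it was at 32.9, 40.6, 30.7, 43.3 and 35.6 TPM with 5xFAD and at 47.2, 38.5, 31.1 and 41.4 TPM with both. At 12 months it was at 44.96, 38.1 and 39.0 TPM in controls and at 57.9, 62.8, 55.9, 43.6 and 40.7 TPM with both. The lowest, median and highest of the 7 samples with Csf1r-Cre at 12 months were 37.9, 45.5 and 50.3 TPM, and those of the 7 samples with 5xFAD were 36.7, 50.6 and 60.7 TPM. The mean was higher at 12 months in 4 of 4 genotypes, with overlap in each. The log2 difference was 0.33 ± 0.07 (SE) with a limma adjusted p of 0.00222. It held without each single library, but the limma adjusted p was 0.400 with median-of-ratios scaling and 0.0660 when TPM were rescaled to protein_coding genes.

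Jpt2 rose most with age where both transgenes were present. With 5xFAD and Csf1r-Cre it was at 3.53, 5.43, 4.45 and 5.39 TPM at 4 months and at 11.4, 15.1, 11.2, 11.5 and 9.69 TPM at 12 months. Every 12-month sample exceeded every 4-month sample, and the log2 difference was 1.24 ± 0.29 (SE) with a limma adjusted p of 0.00898, in a comparison where 3.33% of all genes were called. The call held without each single library. In these samples the 4 oligodendrocyte markers summed to 2214 to 2571 TPM at 4 months and 4646 to 7661 TPM at 12 months. The 5 microglial markers summed to 237 to 405 TPM and 562 to 1040 TPM, and Gm23935, a gene that took a large share of TPM in some libraries, made up 9.38% to 14.7% and 3.10% to 9.49% of TPM. The part of these in the rise of Jpt2 was not tested. With 5xFAD alone Jpt2 was at 5.81, 6.15, 7.26, 8.25 and 8.83 TPM at 4 months and had a lowest, median and highest level of 10.3, 11.8 and 14.4 TPM at 12 months. These ranges did not overlap either, but the log2 difference of 0.69 had a limma adjusted p of 0.164. Without 5xFAD the log2 difference was 0.03 with no Cre and -0.04 with Cre. When both libraries that stood apart were left out, it was 0.22 with no Cre and 0.26 with Cre, neither called. In that run Jpt2 was also called with 5xFAD alone, with a log2 difference of 0.69 and a limma adjusted p of 0.0128. Over the 4 backgrounds, with all libraries, the log2 difference was 0.48 ± 0.14 (SE) with a limma adjusted p of 0.0290. That call was lost without 5xFAD Csf1r-Cre 4-month replicate 1 (0.0559), 12-month control replicate 1 (0.112) or 5xFAD Csf1r-Cre 12-month replicate 2 (0.0509), and with protein_coding scaling (0.109).

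**Figure D4:**
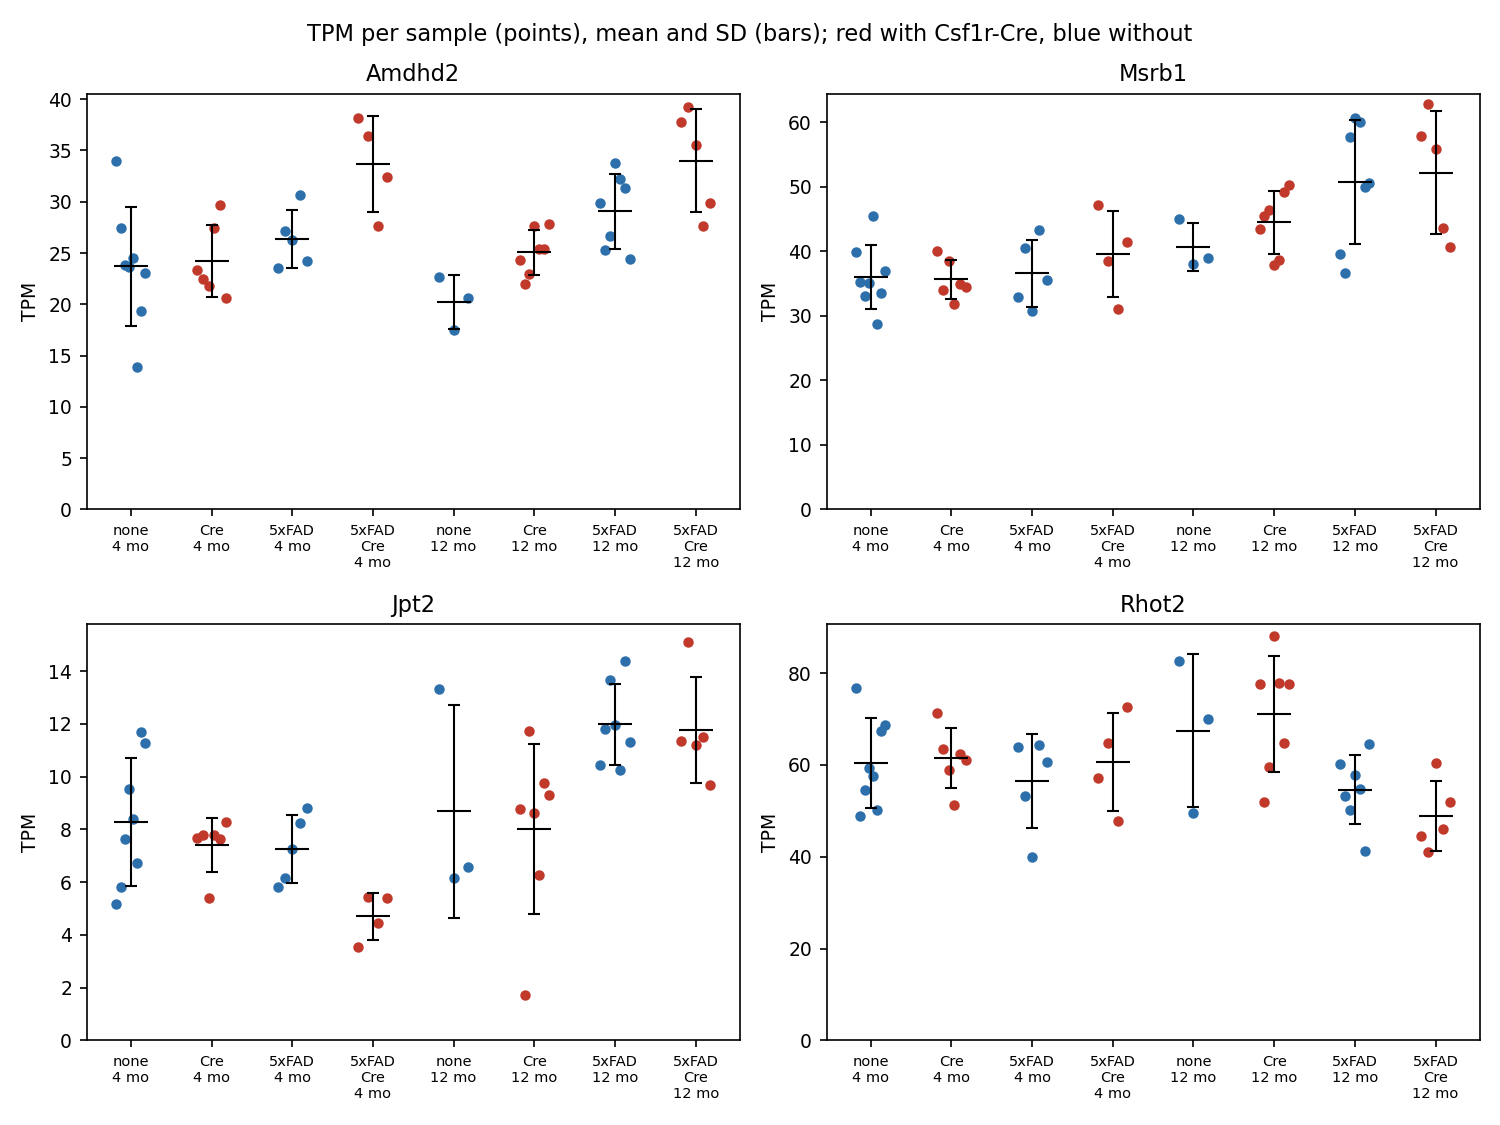
TPM of Amdhd2, Msrb1, Jpt2 and Rhot2 in each of 45 samples by group (points; red with Csf1r-Cre, blue without), with the mean and SD as bars. Jpt2 in 5xFAD Csf1r-Cre samples lay at 3.53 to 5.43 TPM at 4 months and at 9.69 to 15.1 TPM at 12 months.

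In the main fit the 5xFAD effect on Jpt2 was also called as different between the ages. Jpt2 was the only 1 of 90 members called for this difference, against 4.3% of all genes. Its log2 value was 0.97 ± 0.27 (SE), 12 months minus 4 months, with a limma adjusted p of 0.0333. The median of all genes in this contrast was 0.34. With median-of-ratios scaling that median was 0.02, and Jpt2 was at 0.57 with a limma adjusted p of 0.122. The limma adjusted p was 0.0934 with the replicate block and 0.0551 with no filter. The call was lost without 5xFAD 4-month replicate 3 (0.0505), 5xFAD Csf1r-Cre 4-month replicate 1 (0.0571), 12-month control replicates 2 (0.0561) or 3 (0.0717), or 5xFAD Csf1r-Cre 12-month replicate 2 (0.0618). In the other 3 genotypes taken alone 0 members were called with age. The share of all genes called there was 0% in controls and with Csf1r-Cre and 2.71% with 5xFAD. The unadjusted p was under 0.05 for 4, 11 and 8 members, and for 1077, 1520 and 2566 of all 18659 genes. By role, 14 of the 17 members in the broad neuronal and synaptic list were lower at 12 months with 0 called. In mTOR and growth signalling 6 of 8 were higher with 0 called. With median-of-ratios scaling these counts were 15 of 17 and 5 of 8. Of all 90 members, 42 were lower and 48 higher at 12 months, but 64 were lower with median-of-ratios scaling, a shift not limited to these lists.

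The Csf1r-Cre effect was not called as different between ages, or between 5xFAD and none, for any member or any of the 18659 genes by limma. The unadjusted p was under 0.05 for 0 members and 298 genes in the first test and for 14 members and 1732 genes in the second.

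Samples of a group varied to different degrees. The SD within groups on the log2(TPM + 0.5) scale had a median of 0.38 over members. It was lowest for BC003965 at 0.14 and Hcfc1r1, a regulator of host cell factor, at 0.16, and highest for Baiap3, an exocytosis protein, at 1.38 and Srrm2 at 0.95. BC003965 and Baiap3 were named after these values were seen.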

How the data were processed

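RNA was sequenced from hippocampus of 45 mouse samples in 8 groups, taken from the titles. The authors deposited 1 table of TPM values. The submitters' processing notes name mm10 as the build and the tools STAR, featureCounts, limma and edgeR. Versions, strand setting and handling of multiply mapped reads were not given in the sources used here. Depth was judged from whole reads recovered per gene, and no count test was run.

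The 18659 genes that reached 0.5 TPM in 3 or more samples were fitted as log2(TPM + 0.5) in limma 3.58.1 (R 4.3.3), with 1 mean for each of the 8 groups, a trended eBayes prior, two-sided tests, Benjamini-Hochberg adjustment over all genes and a threshold of 0.05. Fold changes on this scale understate changes of low genes. The alternatives were other pseudocounts, filters, scalings, left-out libraries and a replicate block.

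Members and lists were chosen with earlier results of these data known. Named members were the 8 highest and 8 lowest Csf1r-Cre differences, those called for 5xFAD or age, the 5 highest means, the 5 nearest to Atp6v0c on either side, and up to 4 of each role list. The role lists held 81 members.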

Additional observations from a re-analysis of the deposited data

Results flagged for a closer look

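Of 119 groups of values tested for a sample far from the others, 6 held one, and chance gives about 1 in 20. Atp6v0c was highest in 4-month control replicate 1, at 572 TPM. Rps2 was highest in 12-month Csf1r-Cre replicate 2, a library that stood apart, at 2582 TPM. Jpt2 was lowest in 4-month Csf1r-Cre replicate 3, at 5.39 TPM. Rnf151 was above 0 in a single sample of 2 groups, 4-month 5xFAD replicate 4 at 0.0523 TPM and 12-month 5xFAD replicate 5 at 0.0482 TPM. Prss41 was highest in 4-month control replicate 7, at 0.639 TPM. The 5xFAD effect on Jpt2 differed between the ages by 0.97 on the log2 scale in the limma test of that difference. That call was lost with median-of-ratios scaling, no filter or the replicate block.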

How the results depend on the processing

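The threshold for members gave 98 genes at 0.5 TPM and 82 at 2 TPM. No difference of a called member changed sign under any alternative run. Rnps1 stayed called without each of the 45 libraries, and Luc7l was also called with median-of-ratios scaling, where Spsb3 was not. The 2 members called for Csf1r-Cre became 1 without the 2 libraries that stood apart, 1 with the replicate block, 1 without the 12-month 5xFAD background, 0 with the 4-month backgrounds alone and 0 with the 12-month ones alone. The median difference of all 90 members was 0.02 with median-of-ratios scaling. For 5xFAD over the 4 backgrounds, 1 became 2 with median-of-ratios scaling (Fbxl16 lower and Telo2 higher, not Amdhd2) and 2 without the 2 libraries (Amdhd2 and Rhot2). For 5xFAD in each background, 5 became 7 with median-of-ratios scaling (all lower; of the 5, only Rhot2 kept its call), 3 with no filter, 1 without the 2 libraries (Rhot2) and 3 with the replicate block. For age over the 4 backgrounds, 2 became 1 with median-of-ratios scaling (Jpt2), 1 with protein_coding scaling (Stub1, lower) and 5 without the 2 libraries. For age in each genotype, 1 became 2 with a pseudocount of 1, 2 with a filter of mean TPM of at least 1, and 7 without the 2 libraries. For the change of the 5xFAD effect with age, 1 became 0 with no filter, 2 with median-of-ratios scaling (both lower, not Jpt2), 10 without the 2 libraries (9 higher) and 0 with the replicate block. Without the 2 libraries the calls over all genes moved as well. Age over the 4 backgrounds called 1957 higher and 34 lower of 18574 genes, against 866 and 18 of 18659. The change of the 5xFAD effect with age called 1501 higher and 47 lower, against 787 and 15. Age with 5xFAD called 1098 higher and 10 lower, against 501 and 4, and with both transgenes 1343 and 47, against 608 and 14. For 5xFAD at 12 months without Cre the calls were 124 and 4, against 306 and 24. The cause of these changes was not tested. The main fit did not pair samples by replicate number. Correlations of same-numbered samples ran from -0.52 to 0.59, and were all positive for replicates 6 (0.19 to 0.29) and 7 (0.01 to 0.37). Samples of different number were not compared, so these values cannot decide whether the numbers pair samples.

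Leaving out single libraries gave 1 to 2 members for Csf1r-Cre, 1 to 3 for 5xFAD, 1 to 14 for 5xFAD in each background, 1 to 4 for age, 1 to 7 for age in each genotype and 0 to 4 for the change of the 5xFAD effect with age. The 14 and 13 came without 5xFAD Csf1r-Cre 12-month replicate 3 and Csf1r-Cre 12-month replicate 3, and the 7 without Csf1r-Cre 12-month replicate 2. Calls over all genes in these single-library runs are not given here. Counts of Csf1r-Cre calls in single backgrounds, and of differences in the Csf1r-Cre effect, stayed at 0 in every alternative run.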
